A study of Arabidopsis thaliana with 11 samples.

Results

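The genes described here encode core components of the spliceosome, 48 loci in all: proteins of the U1 and U2 snRNPs and of the SF3 complexes, the branch point protein AtSF1, proteins of the U4/U6.U5 tri-snRNP, the Prp19-type (NTC) complex, DEAH-type helicases, Sm and LSm ring proteins, the cap-binding complex and the minor U11/U12 snRNP. They were chosen by locus name, and their roles were assigned from general knowledge and from the RefSeq product names. Of the 48 loci, 45 had introns in the tables used, with 319 of 121244 introns and 45 of 22121 genes in all. U11/U12-31K, STA1 and smB were not analysed here.

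The study isolated chromatin-bound RNA of Arabidopsis thaliana and split it by polyadenylation, with the aim of separating nascent from processed transcripts. All groups came from whole 10-day-old seedlings of the wild type Col-0: RNAf held only the polyadenylated chromatin RNA (2 libraries), RNAe the chromatin RNA left after removal of polyadenylated RNA and rRNA (2 libraries), CB-RNA a separate preparation of chromatin RNA without rRNA (2 libraries), RNAe + RNAf chromatin RNA without rRNA but with its polyadenylated part (2 libraries), and mRNA the ordinary polyadenylated RNA (3 libraries). For each intron of the longest transcript of a gene, the reads in the intron and in the exon beside the 5' splice site (5'SS) and beside the 3' splice site (3'SS) were counted, and the SS ratio is the intronic over the exonic reads. Each group had 1 pooled set of reads, so no spread between replicates could be given, and Fisher's exact test on these reads sets pooled libraries against each other and takes in only the error of counting.

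The spliceosome removes introns by recognising the 5'SS through the U1 snRNP and the branch point through SF1 and the U2 snRNP, after which the tri-snRNP joins, the NTC activates the complex, and helicases drive each rearrangement and the release of the products. Much of this happens while the transcript is still on chromatin, so that intronic reads beside a splice site mark RNA that is not yet spliced there. Transcripts of splicing factors are themselves spliced, and several, such as that of U1-70K in plants, are known to have forms that keep an intron.

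At the 5'SS the member introns had median exonic reads of 287 in RNAf, 53 in RNAe, 102 in CB-RNA, 44 in RNAe + RNAf and 897 in mRNA, so that single introns were measured most precisely in mRNA and least in RNAe + RNAf. Of the 45 genes, 43 were counted in RNAf, 44 in CB-RNA and all 45 in the other groups. SAP130a and SAP130b, which encode SF3B3-type subunits, were the uncounted pair in RNAf, and SAP130a also in CB-RNA, while SAP130a had no exonic read in RNAe and RNAe + RNAf. Their coding sequences are identical at 3638 of 3645 positions, and reads with more than 1 alignment had been excluded, so their counts are uncertain in every group. Leaf genes such as RBCS1A and RCA were present in all groups, and of the root markers PYK10 was high, whereas EXPA7 lay between 1.05 and 1.58 and SHV2 between 0.145 and 1.59 reads per splice-site window per 1000000 exonic reads.

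The member introns as a set had lower median SS ratios than all introns in all 5 groups. Their median 5'SS ratio was 0.0186 in RNAf, 0.188 in RNAe, 0.196 in CB-RNA, 0.181 in RNAe + RNAf and 0.00149 in mRNA, against 0.0455, 0.308, 0.284, 0.258 and 0.00639 in the same order over all introns. At the 3'SS the member medians were 0.0275, 0.232, 0.218, 0.191 and 0.00190, against 0.0583, 0.333, 0.307, 0.286 and 0.00748 over all introns. The 3 groups that contained unpolyadenylated chromatin RNA therefore lay close together, RNAf lay about an order of magnitude lower, and mRNA lower again. No intronic read was found at the 5'SS of 120 member introns in mRNA (37.7%), against 26.2% of all introns. Another 44 spliceosome genes with 271 introns, listed from general knowledge, had 5'SS medians of 0.0284, 0.269, 0.25, 0.186 and 0.00347 in the same order of groups, each between the members and all introns. Single classes did not all lie below all introns in each group. The Sm and LSm median at the 5'SS was 0.321 in CB-RNA, above that of all introns, and below it in the other groups. The U11/U12 median at the 5'SS was above that of all introns in RNAe (0.357) and mRNA (0.0119) and below it in the other groups. These are descriptions, and the difference of the members from other introns was not tested.

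**Figure D1:**
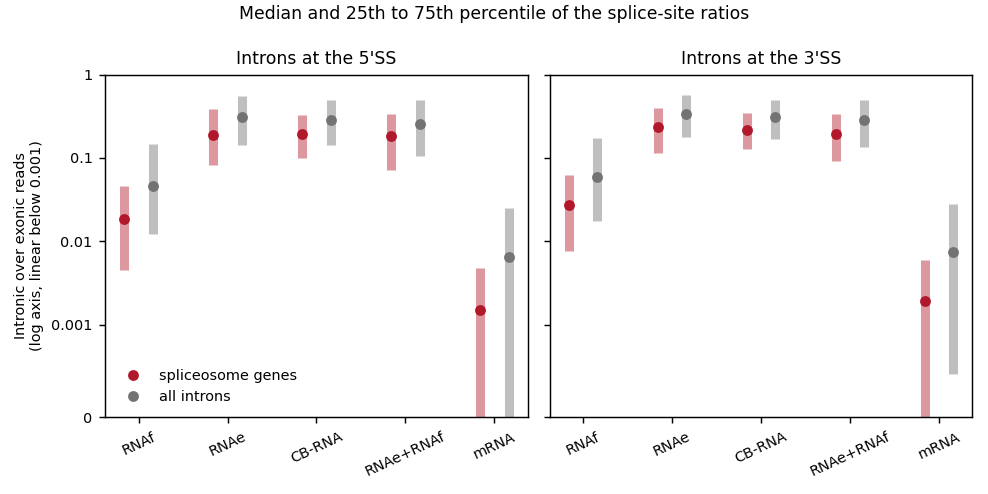
Median SS ratio (symbols) with the 25th to 75th percentile (bars) of the member introns and of all introns in the 5 groups, at the 5'SS and at the 3'SS, on a log axis that is linear below 0.001. The member medians lie below those of all introns in each group, 0.0186 against 0.0455 in RNAf and 0.00149 against 0.00639 in mRNA at the 5'SS.

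Polyadenylated chromatin RNA kept more intronic reads than mRNA in nearly all member genes. Summed over the introns of a gene and over both splice sites, the ratio was higher in RNAf than in mRNA in 43 of 43 genes, with a range over the genes of 0.0110 (AT1G14650) to 0.780 (AtSF1) in RNAf and of 0 to 0.229 (AtSF1) in mRNA. In Fisher's exact test (two-sided, Benjamini-Hochberg over all genes, adjusted p under 0.05), 40 of 43 genes were higher in RNAf at both splice sites and none lower, against 91.2% and 0.246% of all genes. The genes that passed only at the 3'SS were AT5G64270 (an SF3B subunit 1 domain protein), AT1G14650 (a SWAP/surp domain protein) and AT5G28740 (a TPR-like protein of the NTC). By intron, 166 of 311 member introns were higher and 2 lower in RNAf at the 5'SS, where 58% of all tested introns were higher and 0.47% lower. At the 3'SS, 187 of 311 were higher and none lower, where the shares over all introns were 63.7% and 0.409%. The share of members called at either site was thus near or below the background. Of the other spliceosome genes, 39 of 42 were higher and 1 lower in RNAf than in mRNA, 1 of 42 higher and 35 lower in RNAf than in RNAe, and 39 of 41 higher and none lower in CB-RNA than in mRNA.

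The same polyadenylated chromatin RNA was far lower than RNAe. Of 43 genes, 42 had a lower summed ratio in RNAf than in RNAe, and 37 of 42 tested genes passed at both sites (75.7% of all genes), with none higher (0.268%). AT5G64270, AtSF1 and SmD3 passed at neither site, AT3G07590 (a small nuclear ribonucleoprotein family gene) passed only at the 5'SS, and SKIP passed at both sites in opposite directions. By intron, 218 of 304 were lower and 2 higher in RNAf at the 5'SS (68.1% and 0.848% of all introns), and 225 of 306 were lower and 3 higher at the 3'SS (69.5% and 0.427%).

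CB-RNA stood above mRNA at nearly every member intron: 297 of 310 were higher at the 5'SS and 304 of 311 at the 3'SS, with none lower at either site, where 91.2% and 92.9% of all introns were higher and 0.185% and 0.127% lower. By gene, 41 of 43 were higher and none lower (95.7% and 0.0879% of all genes), while AT5G64270 passed only at the 3'SS and SAP130b at neither site.

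Few member introns were called between the 3 groups with unpolyadenylated chromatin RNA. Between RNAe and RNAe + RNAf, 3 of 290 member introns were higher in RNAe and 1 was lower at the 5'SS (0.853% and 0.337% of all introns), and 6 of 298 were higher and 2 lower at the 3'SS (0.711% and 0.275%). Between CB-RNA and RNAe + RNAf, 4 of 294 were higher and 3 lower at the 5'SS (1.19% and 1.38%), and 3 of 302 were higher and 3 lower at the 3'SS (0.925% and 1.08%). By gene, 4 of 42 were higher in RNAe than in RNAe + RNAf and none lower (3.92% and 0.506% of all genes), namely LSM4, CBP20, AT4G21660 and AT4G03120. Against RNAe + RNAf, 2 of 42 genes were higher in CB-RNA (3.07%), CBP20 and emb2444, and MAC3A was lower (1.81%). The counts are too small to read the members' shares against these backgrounds.

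**Figure D2:**
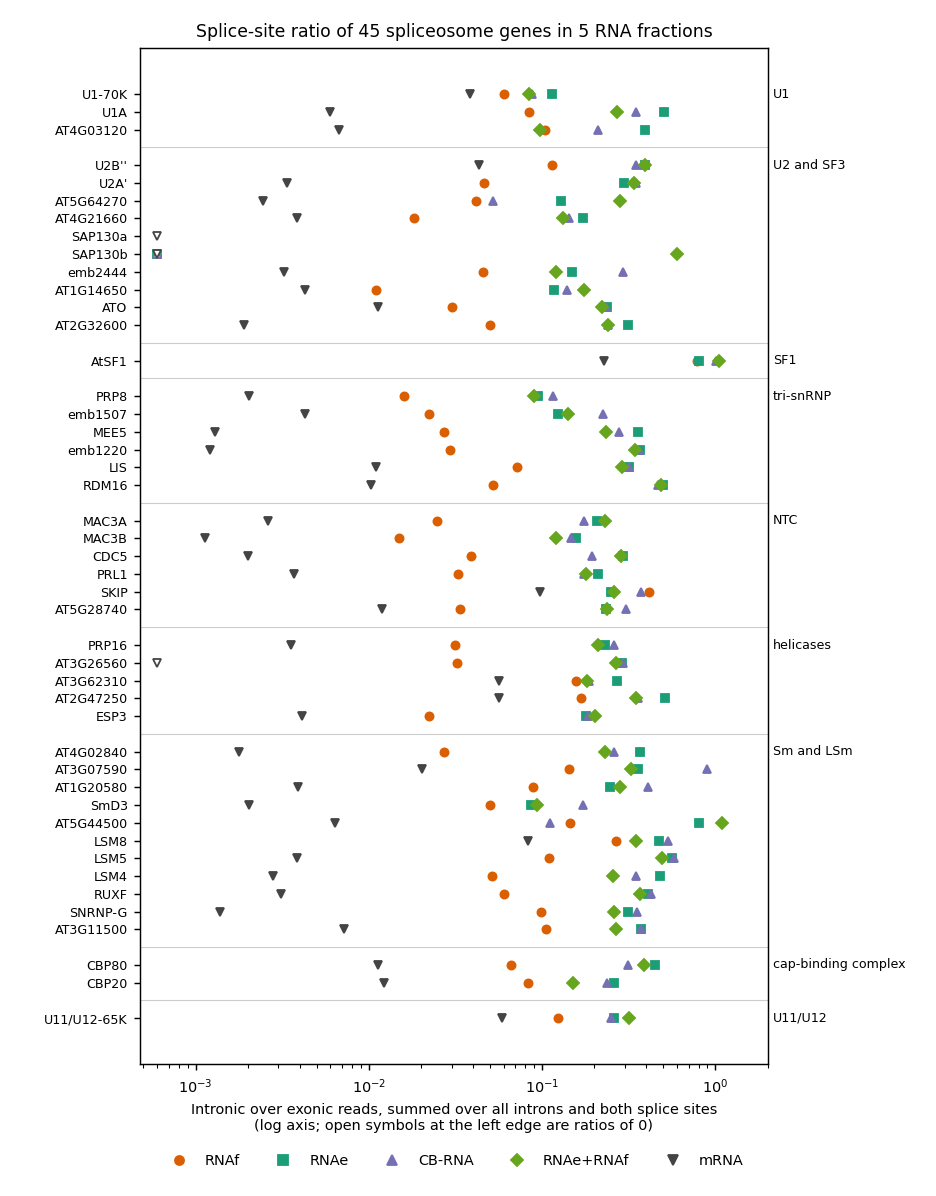
Ratio of intronic to exonic reads summed over the introns and both splice sites of each of the 45 member genes, by class, in the 5 groups on a log axis, where open symbols at the left edge stand for a ratio of 0. The symbols of mRNA lie to the left of those of RNAf in the 43 genes counted in both. Those of RNAe lie to the right of RNAf in 42 of 43 genes, with SKIP the exception. CB-RNA and RNAe + RNAf also lie to the right of RNAf in most genes, but the 3 groups are apart in some. SAP130b, not counted in RNAf, has 0 in RNAe and CB-RNA and 0.600 in RNAe + RNAf.

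The U1 snRNP genes, which encode the proteins that recognise the 5'SS, had 16 introns. Of these, 7 at the 5'SS and 8 at the 3'SS were higher in RNAf than in mRNA (58% and 63.7% of all introns). Across the class, U1A had the highest summed ratio in RNAe and U1-70K the lowest. U1A had 0.0844 in RNAf, 0.506 in RNAe, 0.350 in CB-RNA, 0.272 in RNAe + RNAf and 0.00594 in mRNA, and its introns 2 to 4 overlap another annotated gene, AT2G09945. AT4G03120, a U1-C type zinc finger gene, had 0.104, 0.392, 0.210, 0.0977 and 0.00675 in the same order of groups. It was higher in RNAe than in RNAe + RNAf (adjusted exact p = 0.0274 at the 5'SS and 0.0281 at the 3'SS, Fisher's exact test).

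U1-70K (chromosome 3, minus strand, 8 introns) had the lowest summed ratio of the class in RNAe at 0.114, with 0.0606 in RNAf, 0.0875 in CB-RNA, 0.0843 in RNAe + RNAf and 0.0386 in mRNA. Nearly all of the signal in RNAf and mRNA came from 1 intron. Intron 6, of 909 bp at chr3:18827440-18828348, had a 5'SS ratio of 0.933 in RNAf (1652 intronic and 1770 exonic reads, 95% Wilson interval 0.873 to 0.998), 1 in RNAe (0.775 to 1.29), 1.11 in CB-RNA (0.922 to 1.35), 0.944 in RNAe + RNAf (0.677 to 1.32) and 0.457 in mRNA (580 and 1268 reads, 0.415 to 0.505). These intervals, like all others given, cover counting error only, since each group was 1 pooled set of reads. No molecular identifiers are described for the reads, so copies of 1 molecule could not be told apart. The intervals of the 4 chromatin groups overlapped at this site and mRNA lay below them (RNAf against mRNA, adjusted exact p = 1.6e-31; RNAf against RNAe, 0.71). At the 3'SS the ratios were 0.248, 0.414, 0.344, 0.341 and 0.162, lower than at the 5'SS in each group, and RNAf differed there from both RNAe (adjusted exact p = 0.0014) and mRNA (5.7e-08).
The start of the intron is printed because another RefSeq transcript holds the whole intron within an exon, so that the reading frame would run into it. It is read from the minus strand of TAIR10 (RefSeq copy) at chr3:18828232-18828348, and capitals mark the first 2 bases and the first in-frame stop codon, at base 115, here and in the starts of further introns below.
U1-70K intron 6, first 117 bases: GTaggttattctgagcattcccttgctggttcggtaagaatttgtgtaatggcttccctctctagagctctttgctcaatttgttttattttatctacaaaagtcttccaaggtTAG
The other 7 introns of U1-70K had 5'SS ratios of 0 to 0.00705 in RNAf and 0 to 0.00761 in mRNA, against 0.0126 to 0.202 in RNAe, 0.00524 to 0.175 in CB-RNA and 0.00845 to 0.205 in RNAe + RNAf. In RNAf the exonic reads at the 5'SS numbered 2245 at intron 1 and 6919 at intron 8, and in mRNA 1460 and 2022, so the reads of RNAf were the more uneven along the gene.

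The U2 and SF3 genes, whose products hold the branch point, had 57 introns in 10 genes. Of 52 tested at the 5'SS, 25 were higher in RNAf than in mRNA (58% of all introns). Both member introns that were lower belonged to this class. Intron 2 of ATO, the SF3a60-type gene, had 0 intronic on 411 exonic reads in RNAf against a ratio of 0.0138 in mRNA (adjusted exact p = 0.034), and intron 12 of AT4G21660, a PSP family gene, 0 on 2408 against 0.00389 (adjusted exact p = 0.0035). At 3 counts, the limit that a count of 0 allows, the ratio in RNAf could be up to 0.00730 in ATO and 0.00125 in AT4G21660.
U2B'' had the highest summed ratio of the class in RNAe, with 0.114 in RNAf, 0.392 in RNAe, 0.348 in CB-RNA, 0.392 in RNAe + RNAf and 0.0431 in mRNA. Its intron 4 is held whole in an exon of another transcript and had 0.0572 at the 5'SS and 0.0909 at the 3'SS in RNAf, against 0.0874 and 0.0879 in mRNA. SAP130b had no intronic read in RNAe, CB-RNA or mRNA and a ratio of 0.600 in RNAe + RNAf, on 1.25 exonic reads per window.
emb2444, an RRM protein gene, had 0.292 in CB-RNA against 0.120 in RNAe + RNAf (adjusted exact p = 0.0178 at the 5'SS and 0.00908 at the 3'SS).
AT4G21660 was higher in RNAe than in RNAe + RNAf as a gene (0.171 against 0.132, adjusted exact p = 0.0166 at the 5'SS and 0.013 at the 3'SS), but its introns went both ways. Intron 15 had 0.322 in RNAe against 0.116 in RNAe + RNAf at the 5'SS (adjusted exact p = 0.014), and intron 2 had 0.0206 against 0.236 (0.022), and 0.00847 against 0.263 at the 3'SS (0.00051). Both introns were named after their values were seen.

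AtSF1, which in yeast and human binds the branch point, has a single listed intron, of 581 bp in the 3' UTR at chr5:20849264-20849844. Its 5'SS ratio was 0.836 in RNAf, 0.943 in RNAe, 1.14 in CB-RNA, 0.933 in RNAe + RNAf and 0.202 in mRNA, and its 3'SS ratio 0.749, 0.684, 0.957, 1.12 and 0.254. It was thus higher in RNAf than in mRNA (adjusted exact p = 2.7e-38 at the 5'SS and 7.1e-30 at the 3'SS), and the test did not separate RNAf from RNAe (0.77 and 0.85). Another transcript holds this intron whole in an exon, and another places its end 105 bases downstream.

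The tri-snRNP genes carried 55 introns in 6 genes. In RNAf, 32 at the 5'SS and 34 at the 3'SS were higher than in mRNA (58% and 63.7% of all introns). The median 5'SS ratio was 0.0192 in RNAf, 0.127 in RNAe, 0.161 in CB-RNA, 0.154 in RNAe + RNAf and 0 in mRNA, where the 3'SS median was 0.00158. PRP8, the protein at the catalytic centre, had the lowest summed ratio in RNAe, with 0.0159 in RNAf, 0.0944 in RNAe, 0.116 in CB-RNA, 0.0895 in RNAe + RNAf and 0.00203 in mRNA. RDM16, of the PRP3 type, had the highest, with 0.0521, 0.495, 0.466, 0.489 and 0.0103.
Intron 7 of PRP8 was higher in RNAf than in RNAe, unlike most introns. Its ratio was 0.118 on 51 exonic reads in RNAf, against 0.0219 on 320 reads in RNAe at the 5'SS (adjusted exact p = 0.01), and 0.121 against 0.0327 at the 3'SS (0.021).
The largest differences in the common direction came from MEE5, which resembles the Snu114 GTPase, and emb1220, with a Prp31 C-terminal domain. Intron 10 of MEE5 had a 5'SS ratio of 0.0333 in RNAf against 1.57 in RNAe (adjusted exact p = 1.6e-49), and intron 6 of emb1220 had 0.0169 against 0.741 (3.6e-26). At the 3'SS, intron 5 of RDM16 had 0.0727 against 0.829 (2e-22) and its intron 2 had 0.0806 against 0.680 (1e-10).

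The NTC genes had 57 introns in 6 genes. Among these, 32 at the 5'SS and 35 at the 3'SS were higher in RNAf than in mRNA (58% and 63.7% of all introns). CDC5, a Myb-related subunit, had the highest summed ratio in RNAe, with 0.0387 in RNAf, 0.291 in RNAe, 0.195 in CB-RNA, 0.286 in RNAe + RNAf and 0.00201 in mRNA. MAC3B, 1 of the Prp19-type ubiquitin ligases, had the lowest, with 0.0148, 0.156, 0.146, 0.121 and 0.00113. Its paralogue MAC3A had 0.0246, 0.209, 0.174, 0.230 and 0.00262, and was the only member gene lower in CB-RNA than in RNAe + RNAf at both sites (adjusted exact p = 0.0386 at the 5'SS and 0.0347 at the 3'SS). PRL1 intron 16 was among the introns lower in RNAf than in RNAe, with a 3'SS ratio of 0.0611 against 0.614 (3.7e-16).
SKIP was the single gene with a summed ratio higher in RNAf than in RNAe, 0.413 against 0.25. Its only listed intron, in the 5' UTR at chr1:29001665-29001963, split by site. At the 3'SS it had 0.837 in RNAf, 0.370 in RNAe, 0.5 in CB-RNA, 0.377 in RNAe + RNAf and 0.176 in mRNA (RNAf against RNAe, adjusted exact p = 1.7e-10; against mRNA, 3.9e-60), but at the 5'SS 0.0352, 0.125, 0.232, 0.135 and 0.00828. Another annotated transcript ends this intron 176 bases upstream, so that the window at the 3'SS lies within an exon of that transcript.

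The helicase genes had 56 introns in 5 genes. Those higher in RNAf than in mRNA numbered 24 at the 5'SS and 28 at the 3'SS (58% and 63.7% of all introns). ESP3, a homologue of the yeast PRP2 ATPase, had the lowest summed ratio in RNAe, with 0.0224 in RNAf, 0.178 in RNAe, 0.183 in CB-RNA, 0.202 in RNAe + RNAf and 0.00414 in mRNA. Its intron 6 was lower in RNAf than in RNAe at the 5'SS, 0.0611 against 0.729 (adjusted exact p = 8.5e-18). AT2G47250 had the highest, with 0.168, 0.511, 0.357, 0.347 and 0.0567. Of the others, PRP16, which in yeast remodels the catalytic centre between the splicing steps, had 0.0313, 0.232, 0.261, 0.209 and 0.00353, and AT3G26560, an ATP-dependent RNA helicase gene, had 0.0321, 0.287, 0.292, 0.267 and 0.
AT2G47250 and AT3G62310 form a pair of RNA helicase family genes of the PRP43 type, which in yeast takes spliceosomes apart after splicing, and both had the same intron standing out in polyadenylated RNA. In AT3G62310, intron 3 (371 bp, chr3:23058403-23058773) had a 5'SS ratio of 0.843 in RNAf (95% Wilson interval 0.747 to 0.951), 0.780 in RNAe, 0.652 in CB-RNA, 0.478 in RNAe + RNAf and 0.198 in mRNA (0.171 to 0.228). In AT2G47250, intron 3 (423 bp, chr2:19400817-19401239) had 0.751 in RNAf (0.655 to 0.860), 0.705 in RNAe, 0.852 in CB-RNA, 0.854 in RNAe + RNAf and 0.2 in mRNA (0.171 to 0.234). In both genes RNAf was higher than mRNA (adjusted exact p = 7.7e-54 in AT3G62310 and 3.7e-36 in AT2G47250) and was not separated from RNAe by the test (0.87 and 0.89). At the 3'SS the ratios were 0.912 in RNAf and 0.469 in mRNA for AT3G62310 and 0.865 and 0.422 for AT2G47250 (adjusted exact p = 2.9e-22 and 1.7e-22).
The other 5 introns of each gene were spliced in both polyadenylated groups, with 5'SS ratios in RNAf of 0.00719 to 0.0319 in AT3G62310 and 0.00450 to 0.0638 in AT2G47250, and in mRNA of 0.000666 to 0.00422 and 0 to 0.00805. The pair shared 65.8% identity in intron 3, 88.8% in exon 3, 91.3% in exon 4 and 86.3% over the coding sequence. Identity in the other 5 introns ran from 46.3% in intron 1 to 69.4% in intron 4, so intron 3 was not the most alike. The starts of both introns, each up to the first in-frame stop codon and read from the minus strand at chr3:23058619-23058773 and chr2:19401148-19401239, show how the frame would end if the intron stayed.
AT3G62310 intron 3, first 155 bases: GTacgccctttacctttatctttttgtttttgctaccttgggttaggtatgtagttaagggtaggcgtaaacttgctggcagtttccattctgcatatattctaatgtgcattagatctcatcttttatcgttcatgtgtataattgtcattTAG
AT2G47250 intron 3, first 92 bases: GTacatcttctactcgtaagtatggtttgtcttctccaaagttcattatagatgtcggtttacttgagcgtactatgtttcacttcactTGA
In AT3G62310 another transcript ends intron 3 at a site 118 bases upstream, and 1 of the 3 annotated transcripts does not span this intron. Introns 4 to 6 are not spanned by 2 of the 3. Whether such shorter transcripts gave some of the intronic reads was not tested.

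**Figure D3:**
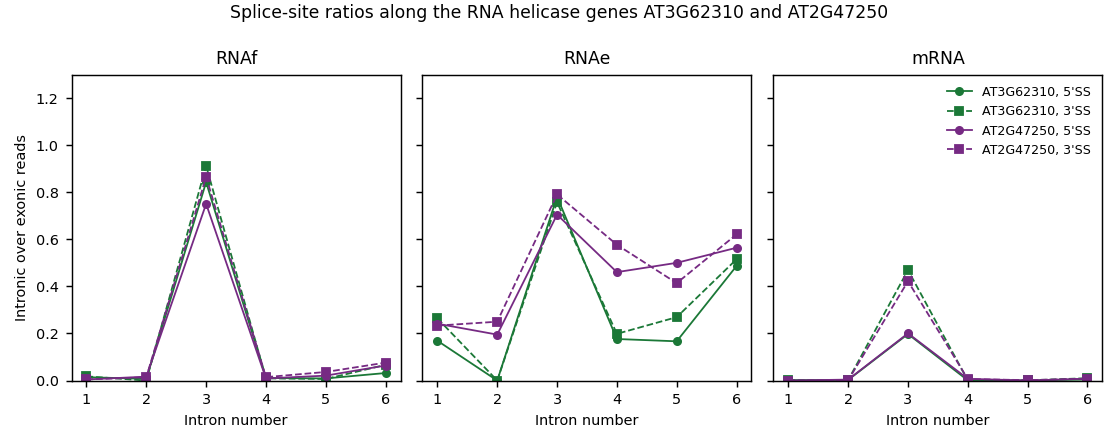
SS ratio at the 5'SS and 3'SS along introns 1 to 6 of AT3G62310 and AT2G47250 in RNAf, RNAe and mRNA. Intron 3 stands out in both genes, at 0.843 and 0.751 in RNAf and 0.198 and 0.2 in mRNA at the 5'SS.

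The Sm and LSm genes, whose proteins form rings around the snRNAs, had 32 of 40 introns higher in RNAf than in mRNA at the 5'SS and 34 at the 3'SS, where 58% and 63.7% of all introns were higher. Their 5'SS medians were 0.0386 in RNAf, 0.288 in RNAe, 0.321 in CB-RNA, 0.212 in RNAe + RNAf and 0.00186 in mRNA. The difference of these counts from the other classes or from all introns was not tested.
The summed ratios of paralogues differed in some groups and lay close in others. The lowest counts leave some of these values imprecise, and no difference between paralogues was tested. Of the SmD1-type pair, AT4G02840 had 0.0272 in RNAf, 0.366 in RNAe, 0.262 in CB-RNA, 0.232 in RNAe + RNAf and 0.00178 in mRNA, and AT3G07590 had 0.142, 0.356, 0.900, 0.327 and 0.0203, with 15 exonic reads per window in CB-RNA. Of the SmD3-type pair, AT1G20580 had 0.0883, 0.245, 0.408, 0.281 and 0.00392, and SmD3 (AT1G76300) 0.0497, 0.0860, 0.173, 0.0928 and 0.00202, the lowest of the class in RNAe. Of the SmG-type pair, SNRNP-G had 0.0982, 0.313, 0.352, 0.259 and 0.00138, and AT3G11500 had 0.105, 0.374, 0.374, 0.267 and 0.00718. AT5G44500, of the SmB/SmN type, had the highest ratio of the class in RNAe at 0.8, on 5 exonic reads per window, so it cannot be ranked firmly.
LSM4, a subunit of the ring on U6 snRNA, had 0.0512 in RNAf, 0.480 in RNAe, 0.348 in CB-RNA, 0.256 in RNAe + RNAf and 0.00281 in mRNA, and of the 4 genes higher in RNAe than in RNAe + RNAf it had the smallest p at the 5'SS (adjusted exact p = 8.44e-06, and 0.0031 at the 3'SS). Its intron 5 overlaps another annotated gene, AT5G04425. Intron 3 of LSM4 was lower in RNAf than in RNAe at both sites, 0.0241 against 1.29 at the 5'SS (2.4e-38) and 0.0476 against 0.854 at the 3'SS (1.4e-27). LSM5, of the same ring, had 0.110, 0.564, 0.576, 0.49 and 0.00387. Intron 4 of RUXF, the SmF-type gene, was 0.0495 in RNAf against 0.722 in RNAe at the 5'SS (2.7e-36).

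The cap-binding complex, encoded by CBP80 and CBP20, holds the 5' end of the transcript and favours splicing of the first intron in other species. Of the 24 introns, 11 at the 5'SS and 13 at the 3'SS were higher in RNAf than in mRNA (58% and 63.7% of all introns). CBP80 had a summed ratio of 0.0661 in RNAf, 0.447 in RNAe, 0.312 in CB-RNA, 0.385 in RNAe + RNAf and 0.0113 in mRNA. Its intron 7 (223 bp, chr2:5638828-5639050) was at 0.511 in RNAf, 0.944 in RNAe, 0.519 in CB-RNA, 0.480 in RNAe + RNAf and 0.0133 in mRNA at the 5'SS (RNAf against mRNA, adjusted exact p = 9e-25), and at 0.476, 0.533, 0.321, 0.634 and 0.0191 at the 3'SS (7e-30). Unlike the introns above, it was raised in RNAf and nearly free of intronic reads in mRNA. Its frame meets a stop codon 25 bases into the intron, as the first bases on the plus strand at chr2:5638828-5638854 show.
CBP80 intron 7, first 27 bases: GTttgccttttagtgtttaattctTGA
CBP20 had 0.0824, 0.260, 0.238, 0.150 and 0.0122 over its introns, and was higher both in RNAe (adjusted exact p = 0.00774 at the 5'SS and 0.0157 at the 3'SS) and in CB-RNA (0.00678 and 0.0196) than in RNAe + RNAf. Its intron 5, named after its values were seen, had 0.259 in RNAe against 0.0208 in RNAe + RNAf at the 5'SS (adjusted exact p = 0.02).

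CBP20 also carries the only member intron with a start of the U12 type, a type that the minor spliceosome removes. Introns of this type with another start would have been missed. U12-type introns were searched by their first 8 bases on the gene strand, ATATCCTT or GTATCCTT, which 1 of 319 member introns (0.313%) and 250 of 121244 introns (0.206%) hold. The intron also ends in AC, and it holds the branch-point-like motif TCCTTAAC, the form that pairs with U12 snRNA, once, 11 bases before its end. Such a match is a description and not a mapped site. It is shown whole, from the minus strand at chr5:17802949-17803082, with the start, the motif and the last 2 bases in capitals.
CBP20 intron 4, 134 bases: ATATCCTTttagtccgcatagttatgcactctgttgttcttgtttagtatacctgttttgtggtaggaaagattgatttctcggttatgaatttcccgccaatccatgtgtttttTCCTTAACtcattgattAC
It had a 5'SS ratio of 0.425 in RNAf (95% Wilson interval 0.366 to 0.493), 0.694 in RNAe, 0.509 in CB-RNA, 0.237 in RNAe + RNAf and 0.0611 in mRNA (0.0472 to 0.0791), and a 3'SS ratio of 0.376, 0.5, 0.342, 0.226 and 0.0512. RNAf was higher than mRNA at both sites (adjusted exact p = 3e-44 and 6.2e-52). All introns with a U12-type start had 5'SS medians of 0.234, 0.463, 0.421, 0.441 and 0.0412 in the same order, so at the 5'SS the intron lay above these medians in all groups but RNAe + RNAf. Their 3'SS medians were 0.241, 0.5, 0.451, 0.449 and 0.0413, so at the 3'SS the intron lay above them in RNAf and mRNA, below them in CB-RNA and RNAe + RNAf, and level with them in RNAe. Neither difference was tested.

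At 50 or more exonic reads per site, U11/U12-65K was the only member with more than 1 intron above 0.1 at both sites in mRNA. It encodes a protein of the minor spliceosome. Over its 10 introns it had 0.124 in RNAf, 0.259 in RNAe, 0.251 in CB-RNA, 0.316 in RNAe + RNAf and 0.0585 in mRNA. At each site 2 of 10 introns were higher in RNAf than in mRNA (58% of all introns at the 5'SS and 63.7% at the 3'SS). Intron 4 (142 bp, chr1:2981399-2981540) had a 5'SS ratio of 0.843 in RNAf on 670 exonic reads and 0.198 in mRNA on 343 reads (adjusted exact p = 1e-26), and 0.754 against 0.361 at the 3'SS (1e-10). In RNAe, CB-RNA and RNAe + RNAf its exonic reads at the 5'SS numbered only 14, 18 and 6, with ratios of 0.214, 0.222 and 0. At the 5'SS it was also called higher in RNAf than in RNAe (adjusted exact p = 0.038), on the 14 exonic reads of RNAe. Intron 6 (72 bp, chr1:2980779-2980850) had 0.39, 0.7, 0.661, 0.667 and 0.149 at the 5'SS in RNAf, RNAe, CB-RNA, RNAe + RNAf and mRNA (RNAf against mRNA, adjusted exact p = 5e-10), and 0.392, 0.667, 0.583, 0.857 and 0.144 at the 3'SS (2.7e-11).
Both introns bring a stop codon into the frame at base 70, intron 4 within the stretch chr1:2981469-2981540 and intron 6 at its very end, both on the minus strand.
U11/U12-65K intron 4, first 72 bases: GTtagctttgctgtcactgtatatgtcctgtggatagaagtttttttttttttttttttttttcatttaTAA
U11/U12-65K intron 6, 72 bases: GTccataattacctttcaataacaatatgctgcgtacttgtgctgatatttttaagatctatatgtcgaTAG

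**Figure D4:**
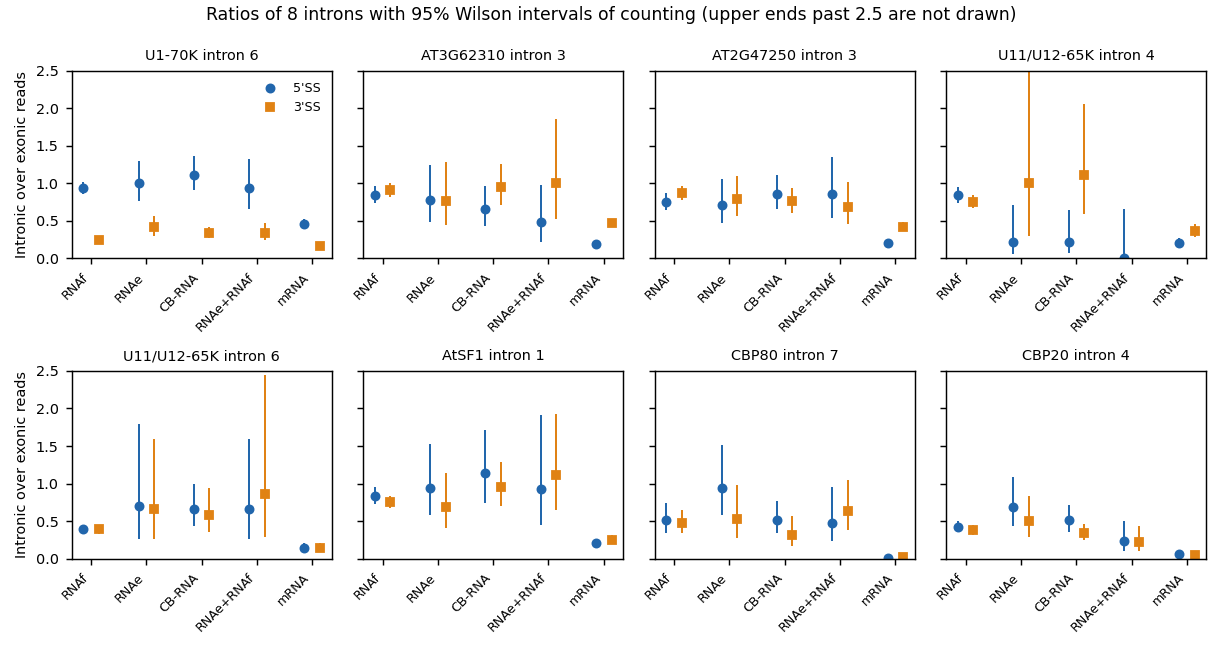
SS ratio at the 5'SS and 3'SS with 95% Wilson intervals, which cover counting error only, of 8 member introns in the 5 groups, with interval ends above 2.5 not drawn. In CBP80 intron 7 mRNA lies near 0 (0.0133 at the 5'SS) and RNAf at 0.511, whereas U1-70K intron 6 has 0.457 in mRNA and 0.933 in RNAf.

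Counted over the members, introns with both ratios high in mRNA were few. At 50 or more exonic reads at each site, 2 of 310 introns had both ratios above 0.2 in mRNA (0.645%), AtSF1 intron 1 and AT2G47250 intron 3, against 2.39% of all introns. Above 0.1 there were 6 of 310 (1.94%) in 5 genes, against 5.36% of all introns, namely those 2, AT3G62310 intron 3, U1-70K intron 6 and U11/U12-65K introns 4 and 6. In RNAf, 29 of 292 member introns (9.93%) passed 0.1 at both sites, against 28.6% of all introns. Of all 319 member introns, 5 lie whole within an exon of another annotated transcript: those of U1-70K, U2B'' and AtSF1 described above, SNRNP-G intron 2 and AT5G44500 intron 1. The intron ends were GT and AG in 315 (98.7%), GC and AG in 3, in PRP8 and ESP3, and AT and AC in CBP20 intron 4. Of the 304 introns between coding exons, 279 hold an in-frame stop codon, so this property was common to the members and not particular to the introns printed here.

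Some introns differed between their 2 sites in mRNA, and these were noticed after the values were seen. LSM8 intron 1, of 347 bp in the 5' UTR, had 1.62 at the 5'SS and 0 at the 3'SS in mRNA, where other transcripts begin the intron 60 or 69 bases downstream. LIS intron 1 had 0.00990 and 0.159 in mRNA, with another transcript ending 19 bases upstream, and it was the remaining intron called higher in RNAf than in RNAe at the 3'SS (0.723 against 0.15 on 20 exonic reads, adjusted exact p = 0.02). ATO intron 1 had 0.668 at the 5'SS and 0.00990 at the 3'SS in RNAf, against 0.176 and 0 in mRNA, with no other end annotated. In such introns the ratio at 1 site alone does not measure how much of the whole intron was kept.

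The longest transcript also holds exons that had few reads in mRNA. Of 273 internal exons examined, 4 had under 25% of their gene's median exonic reads in mRNA. LSM8 exon 5 had 34.4% of the gene median in RNAf, 15.1% in RNAe, 51.9% in CB-RNA, 37.6% in RNAe + RNAf and 1.12% in mRNA, and LSM8 exon 6 had 36.8%, 57.0%, 43.2%, 25.9% and 0.173%. AT4G02840 exon 3 had 5.88%, 20.0%, 20.6%, 39.1% and 0.204%, and AT4G21660 exon 5 had 0.349%, 23.6%, 16.5%, 10.7% and 0.178%. All 4 were read in unpolyadenylated chromatin RNA, while their low share in mRNA is the rule by which they were picked. They parted in RNAf, where the LSM8 exons stayed near the other chromatin groups and AT4G21660 exon 5 was near its mRNA value. In the other annotated transcripts these stretches lie within a longer intron. Whether the chromatin reads came from the exon or from that intron left unspliced was not tested. The reads behind these shares were few, 4 and 9 for LSM8 exon 5 in RNAe, and ratios of the introns beside these exons rest on the same few reads. Each exon is in 1 annotated transcript of its gene, and is printed in capitals with 10 intron bases on each side, read on the gene strand (minus, except plus for AT4G02840) at chr1:24435100-24435196, chr1:24434767-24434838, chr4:1265124-1265173 and chr4:11508699-11508760.
LSM8 exon 5, 77 bases: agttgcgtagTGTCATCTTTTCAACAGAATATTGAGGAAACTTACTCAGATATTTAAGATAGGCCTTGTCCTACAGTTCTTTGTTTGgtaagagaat
LSM8 exon 6, 52 bases: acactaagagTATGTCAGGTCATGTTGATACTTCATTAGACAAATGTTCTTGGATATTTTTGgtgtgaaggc
AT4G02840 exon 3, 30 bases: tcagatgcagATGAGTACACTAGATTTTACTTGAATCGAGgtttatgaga
AT4G21660 exon 5, 42 bases: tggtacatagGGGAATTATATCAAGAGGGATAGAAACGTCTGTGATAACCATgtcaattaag

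Within the genes, the last intron had a higher ratio than the first in RNAe. Among 37 member genes with at least 3 introns, the median of the last minus the first 5'SS ratio was 0.000704 in RNAf, 0.189 in RNAe, 0.0552 in CB-RNA (36 genes), 0.0408 in RNAe + RNAf and 0.001 in mRNA, against 0.0109, 0.107, 0.0567, 0.0298 and 0.00272 over all such genes. In RNAe the last intron was the higher in 26 of 37 genes at the 5'SS (70.3%, against 61.5% of all genes). At the 3'SS it was the higher in 32 of 37 (86.5%, against 61.1% of all genes). Longer member introns also had higher ratios in RNAe, with a 5'SS median of 0.506 in the 42 introns of 300 bp or more against 0.136 in the 129 introns under 100 bp, where the medians over all introns were 0.359 and 0.304. Spearman's rho between length and 5'SS ratio over the member introns was 0.129 in RNAf, 0.176 in RNAe, 0.162 in CB-RNA, 0.135 in RNAe + RNAf and 0.219 in mRNA, against 0.0251 to 0.0428 over all introns, as a description of introns that share genes and libraries.

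The exonic reads also gave the relative level of each gene, as the mean per splice-site window per 1000000 exonic reads, compared only within a gene between groups. These are bulk seedlings, in which fewer cells of a type and less RNA per cell cannot be told apart. The median log2 level of the members in RNAf over mRNA was -0.34 in 43 genes (0.10 over all genes), in CB-RNA over mRNA -0.05 in 44 genes (0.21) and in RNAe over RNAe + RNAf -0.16 in 45 genes (-0.04). Scaling to the median gene counted in all 5 groups shifted these values by -0.12, -0.22 and 0.04. With 1 pooled value per group, none of these levels could be tested.
The Sm and LSm genes had lower levels in RNAf and in CB-RNA than in mRNA under both scalings. LSM8 was not below mRNA in the other two chromatin groups, with 2.51 in RNAe and 4.31 in RNAe + RNAf against 1.81 in mRNA. In RNAf over mRNA 11 of 11 were below 0, with a median log2 ratio of -1.09 and a range of -2.02 to -0.25. In CB-RNA over mRNA 11 of 11 were below 0, with a median of -2.29 and a range of -3.89 to -0.24. Over all genes, 53.5% were above 0 in RNAf over mRNA and 55.4% in CB-RNA over mRNA. SNRNP-G, at the low end, had a level of 5.76 in RNAf, 3.39 in RNAe, 1.56 in CB-RNA, 5.88 in RNAe + RNAf and 23.3 in mRNA.
U11/U12-65K and U1-70K lay at the other end in RNAf. U11/U12-65K had a level of 11.4 in RNAf, 1.33 in RNAe, 1.23 in CB-RNA, 1.15 in RNAe + RNAf and 1.46 in mRNA, so that only its polyadenylated chromatin RNA was high (log2 RNAf over mRNA 2.95, CB-RNA over mRNA -0.26). U1-70K had 30.4, 15.5, 17.8, 18.2 and 6.03, and so was high in all 4 chromatin groups (2.34 and 1.57). AtSF1 had 8.80, 2.42, 2.21, 1.79 and 2.80 (1.65 and -0.33). AT5G64270 was the lowest in RNAf over mRNA, at -2.34. The genes with a higher summed ratio in mRNA tended to be higher in RNAf over mRNA, with Spearman's rho of 0.527 over 43 genes and of 0.311 for CB-RNA over mRNA, a description chosen after the values were seen, of genes that share libraries and of 2 quantities that share the mRNA reads.

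**Figure D5:**
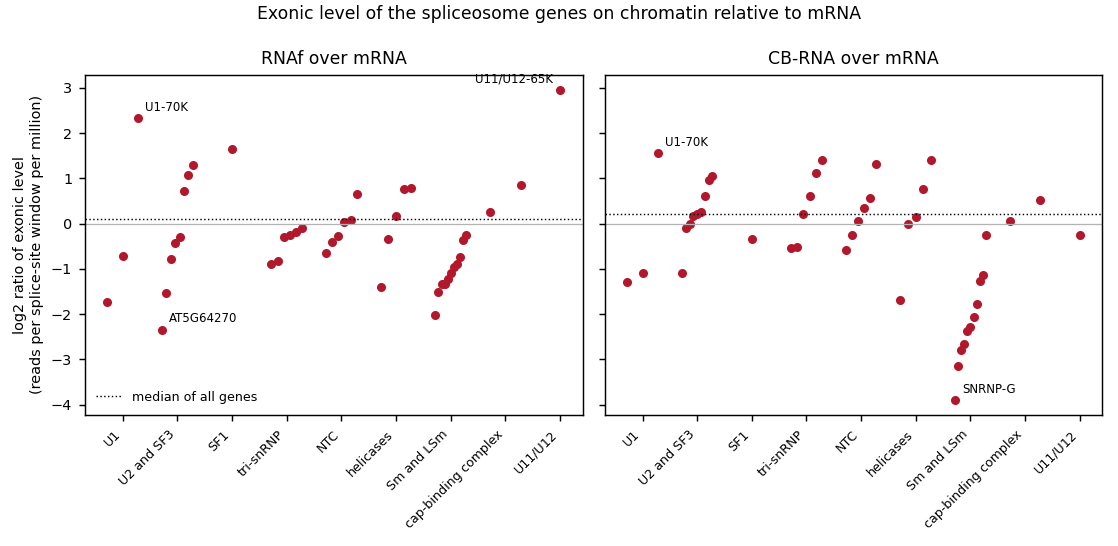
Log2 of the exonic level of each member gene in RNAf over mRNA and in CB-RNA over mRNA, by class, with the median of all genes as a dotted line. The Sm and LSm genes lie below 0 in both comparisons, and U11/U12-65K (2.95) and U1-70K (2.34) are the highest in RNAf over mRNA.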

How the data were processed

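RNA-seq reads had been trimmed with Trimmomatic 0.39, mapped to TAIR10 with HISAT2 2.2.0 and handled with SAMtools 1.3.1, as the study's methods and the submitters' processing notes state. Reads with several alignments had been excluded, genes with an FPKM of at least 1 kept, and the longest transcript of each gene used. The authors' deposited tables hold exonic reads, intronic reads and their ratio at each splice site, as 1 set of values per group. The width of the windows, how replicates were pooled and whether strand was used in counting are not given in the sources used here. A deposited ratio differed from intronic over exonic reads by at most 5e-05. The deposited exonic reads at the 5'SS summed to 45112537 in RNAf, 7415350 in RNAe, 15313955 in CB-RNA, 5460195 in RNAe + RNAf and 116244073 in mRNA.

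Medians used introns with at least 1 exonic read. Fisher's exact test (two-sided) compared intronic and exonic reads per intron, and per gene on summed reads, for introns or genes that had 10 or more exonic reads in each group compared, with Benjamini-Hochberg adjustment at 0.05 over all introns or genes tested. A gene was called where both sites passed in 1 direction. Levels used a pseudocount of 1 read per gene. On simulated data with 200 introns changed 3-fold, the test recovered 69.5% in RNAe against RNAe + RNAf, 62.0% in RNAf against RNAe, 68.0% in RNAf against mRNA, 68.0% in CB-RNA against mRNA and 77.0% in CB-RNA against RNAe + RNAf. The changed introns were drawn at the 5'SS only from those with 50 or more exonic reads in both groups and an intermediate intronic share. Recovery at introns with fewer reads or lower shares, as in many members, was not measured. Sequences and annotation came from the RefSeq copy of TAIR10. Named in full were, by rule, the genes with the highest and lowest ratio per class in RNAe, up to 5 introns with the largest called differences per direction of RNAf from mRNA and from RNAe at 50 or more exonic reads in both groups, introns with both ratios above 0.2 in mRNA, paralogue pairs, all introns of U1-70K, and U12-type introns. The members and lists were chosen with earlier results of these data known. Alternatives changed the read minimum, the adjusted p threshold, a minimum fold of 1.5, the average, the pseudocount, the scaling, the intron number and the SAP130 pair. The scripts ran under Python 3.11.15 with scipy 1.17.1 and numba 0.67.0 for the tests, pandas 2.3.3 with numpy 2.4.6 for the tables, and matplotlib 3.10.9 for plots.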

Additional observations from a re-analysis of the deposited data

How the results depend on the processing

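Of 89 alternative values over 28 results, 12 moved beyond the tolerance set for their result and 77 did not. No median difference or level changed sign, whereas counts of called introns could not. Some tolerances exceeded the value itself, as for the 5'SS difference of RNAe from RNAe + RNAf (0.00722, tolerance 0.0424). Leaving out the SAP130 pair, which had few tested introns, gave 20 of the values that did not move. The tally is thus a weak measure of stability. With a minimum of 50 exonic reads per group, the member introns called at the 5'SS numbered 8 between RNAe and RNAe + RNAf instead of 4, and those between RNAf and RNAe 124 instead of 220 at the 5'SS and 134 instead of 228 at the 3'SS, with fewer introns tested. At an adjusted p of 0.001, 0 introns were called at the 5'SS and 1 at the 3'SS between RNAe and RNAe + RNAf, and 0 and 0 between CB-RNA and RNAe + RNAf, instead of 4, 8, 7 and 6. With means of ratios up to 1 in place of medians, the difference of RNAf from mRNA was 0.0451 at the 5'SS and 0.0553 at the 3'SS instead of 0.0171 and 0.0256, and that of CB-RNA from mRNA 0.228 and 0.244 instead of 0.194 and 0.216. In the last intron alone, the median log2 level of RNAe over RNAe + RNAf was -0.47 instead of -0.16, that of RNAf over mRNA -0.07 instead of -0.34 and that of CB-RNA over mRNA -0.36 instead of -0.05, and scaling to the median gene gave -0.27 for CB-RNA over mRNA. The last minus the first 5'SS ratio in RNAe + RNAf was 0.00756 instead of 0.0408 with 10 or more exonic reads at both introns, and in RNAf 0.000352 instead of 0.000704 in genes with at least 6 introns. The cause of these shifts was not tested.

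No paired analysis was possible because each group was deposited as 1 pooled set of reads, which also left no replicate to leave out. RNAe + RNAf was the shallowest group, with a median of 44 exonic reads at member introns. In the simulation part of the 3-fold changes was missed in every comparison, so an intron that was not called is not shown to be equal.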
